A study of Mus musculus with 8 samples.

Results

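The 10 genes described here are markers of the stem cells at the base of intestinal crypts, the gland-like pockets of the gut epithelium. They are Lgr5, Olfm4, Ascl2, Smoc2, Tnfrsf19, Sox9, Prom1, Cd44, Bmi1 and Msi1, and they were chosen by symbol from the 45706 Ensembl genes of the count tables, in which all 10 were found. RNA-Seq was performed on crypts of the small intestine (SI) and colon (COL), released with EDTA and lysed without culture. The donors were 4 wild type C57BL/6N mice, of which mice 1 and 4 were female and mice 2 and 3 male (mouse 4 bears the number 5 in the labels), and their age is not given in the sources used here. Both tissues were taken from every mouse, and the 4 SI libraries (SI1 to SI4) and 4 COL libraries (COL1 to COL4) are numbered by mouse. No transgene or treatment was used. A crypt preparation holds all cell types of the crypt. The protocol that the study gives for crypt isolation takes the proximal part of the SI. There the SI is first scraped free of villi, while the colon is kept longer in more EDTA.

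Crypt base columnar cells divide continuously and renew the epithelium, and Wnt and R-spondin signals from their surroundings maintain them. In the SI these cells lie between Paneth cells, which the normal colon largely lacks. Several of the 10 genes are targets of Wnt signalling, and some mark further cells as well, such as progenitors or Paneth cells. A different set of markers, of which Bmi1 was among the first, was proposed for slowly cycling cells just above the crypt base, at the +4 position.

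Total counts per library were between 15969428 and 32908060. The mitochondrial share was 4.83% to 7.35% in 4 libraries (SI1, SI4, COL3, COL4), called low here, and 22.7% to 50.8% in the other 4, called high. The tissue labels were checked with regional genes. Gata4, a transcription factor of the proximal gut, had 48.3 to 52.9 CPM (read counts relative to library size, scaled by the TMM method) in SI and at most 0.19 CPM in COL. Among the other regional genes, Fabp6, the ileal bile acid-binding protein listed for the SI, was higher in COL, at 2.36 to 5.96 CPM against 0 to 0.46 CPM in SI. SI1 stood apart from the other SI libraries in the genes described here. The values without SI1 are therefore given for the 10 genes and for the other crypt base genes that passed the test.

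RefSeq promoter sequences were at hand for 6 of the 10 genes, namely Bmi1, Cd44, Prom1, Ascl2, Tnfrsf19 and Olfm4, in 8 windows because Prom1 and Tnfrsf19 have 2 annotated starts each. Shown are the 250 bases before the start for the 3 of them that differed between SI and COL (for Prom1 the window of the more upstream start), and the Tnfrsf19 window that alone held the letters CTTTGA. These letters are the core of the motif read by the TCF and LEF factors, which carry the Wnt signal to DNA. Capitals mark CTTTGA or its reverse complement, and the E-box CANNTG, which is read by basic helix-loop-helix factors such as Ascl2. All 4 are written 5′ to 3′ on the strand of the gene (RefSeq, GRCm38.p6). They lie at chr14:80000052-80000301 (plus strand, Olfm4), chr5:44101737-44101986 (minus strand, Prom1), chr2:102901666-102901915 (minus strand, Cd44) and chr14:61037988-61038237 (minus strand, Tnfrsf19).
Olfm4: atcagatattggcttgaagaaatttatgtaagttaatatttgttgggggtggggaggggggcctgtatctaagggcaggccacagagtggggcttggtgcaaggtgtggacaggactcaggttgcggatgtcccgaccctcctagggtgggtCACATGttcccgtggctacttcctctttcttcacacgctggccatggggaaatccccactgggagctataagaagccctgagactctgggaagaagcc
Prom1: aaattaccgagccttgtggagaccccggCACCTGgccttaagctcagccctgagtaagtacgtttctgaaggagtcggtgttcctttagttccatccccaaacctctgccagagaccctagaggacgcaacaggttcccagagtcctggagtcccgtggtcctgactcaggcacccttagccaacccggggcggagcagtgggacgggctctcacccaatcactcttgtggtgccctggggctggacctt
Cd44: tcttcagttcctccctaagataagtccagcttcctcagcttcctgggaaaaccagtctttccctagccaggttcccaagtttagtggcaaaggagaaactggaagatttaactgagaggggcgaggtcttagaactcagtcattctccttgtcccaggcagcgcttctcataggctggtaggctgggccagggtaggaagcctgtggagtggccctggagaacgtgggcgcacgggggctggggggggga
Tnfrsf19: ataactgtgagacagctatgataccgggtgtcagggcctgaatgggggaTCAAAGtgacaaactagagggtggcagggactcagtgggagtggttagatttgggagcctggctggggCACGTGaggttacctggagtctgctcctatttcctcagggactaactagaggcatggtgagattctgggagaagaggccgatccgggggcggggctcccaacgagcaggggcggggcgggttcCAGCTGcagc
Searched on both strands, CTTTGA was found in 1 of the 8 windows, 201 bases before that Tnfrsf19 start, and in 13.8% of 32851 windows of this length over all genes. The E-box was found in 6 of the 8 windows and in 66.2% of all windows, and TATAAA in none of the 8 and in 12.4% of all. The 2 motifs marked in capitals did not overlap. The shown windows of Olfm4, Prom1 and Tnfrsf19 each lie inside the span of the Ensembl gene, which has an earlier start. The bases after both Tnfrsf19 starts lie in no exon of the gene annotation used. The Cd44 window and the second Prom1 window, which is not shown, held none of these motifs. A match in such a window is a description of the letters and not of a bound site.

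Of the 10 genes, 4 differed between SI and COL crypts. Olfm4 was higher in SI, and Sox9, Prom1 and Cd44 were higher in COL, at a threshold of 0.05 for p-values from edgeR (quasi-likelihood fit) that were adjusted over all 14491 genes tested by the Benjamini-Hochberg method. Lgr5, Ascl2, Smoc2, Tnfrsf19, Bmi1 and Msi1 did not pass it. Of all genes tested, 28.4% passed in either direction, 15.5% with higher expression in SI and 12.9% with higher expression in COL. The median log2 fold change (SI minus COL) was -0.66 over the 10 genes and -0.09 over all genes tested. In bulk crypts, fewer cells of a type and less RNA per cell cannot be told apart. With library size alone as the scaling, all genes split into 1115 higher in SI and 4783 higher in COL, against 2253 and 1863 with TMM, and the 4 calls remained. DESeq2 called the same 4 genes, beside 35.3% of all genes. Without SI1, or without any other single library, the same 4 genes passed in the same direction.

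The differences were also read as SI minus COL in mean log2 CPM within the 4 libraries of low mitochondrial share, which include SI1 and COL4, and within the 4 of high share, with no test. For Olfm4 they were 5.52 and 10.97, for Prom1 -3.34 and -1.25, for Cd44 -3.79 and -2.09 and for Sox9 -3.40 and -2.72. Among the genes that did not pass, Lgr5 was at -2.58 and -0.37, Ascl2 at -2.97 and -1.12, Bmi1 at 0.69 and 0.75 and Msi1 at 0.16 and 0.81. Smoc2, at -1.35 and 0.22, and Tnfrsf19, at -1.55 and 0.45, had opposite signs in the 2 sets. The 4 called genes had the same sign in both. In SI the libraries of low share came from the females and those of high share from the males, so share and sex cannot be told apart there. Only mouse 4 gave both tissues in the low set, and only mouse 2 in the high set.

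**Figure D1:**
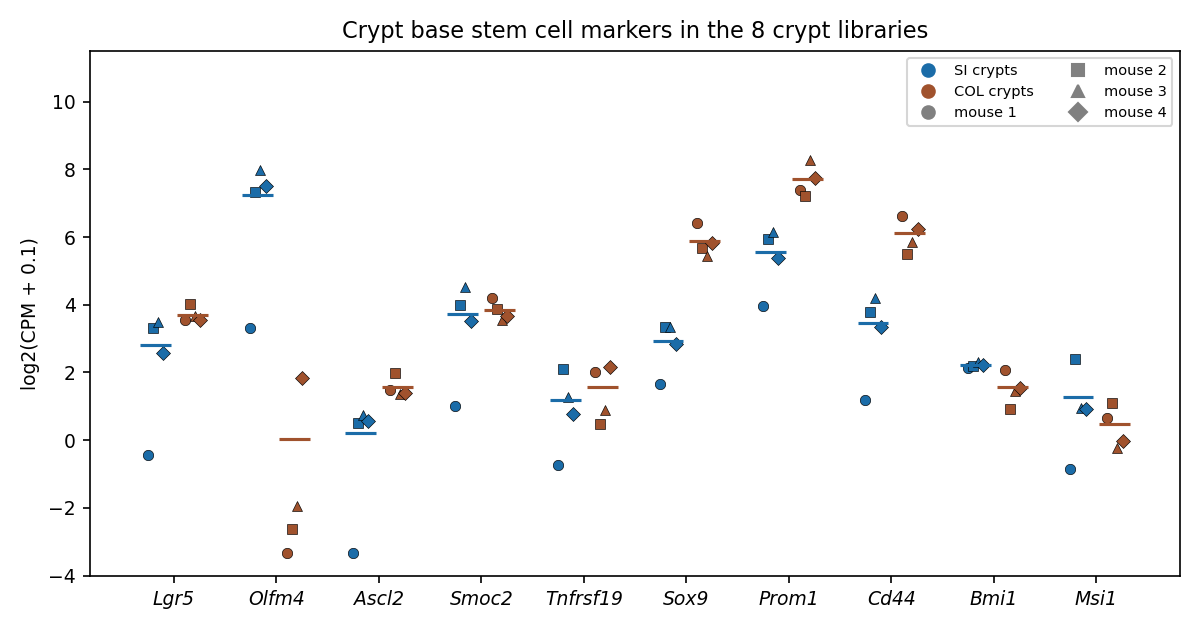
Expression of the 10 crypt base markers, as log2(CPM + 0.1), in the 4 SI libraries (blue) and the 4 COL libraries (brown), with 1 symbol per mouse and lines at the log2 of the tissue mean. Olfm4 lies far higher in SI, Sox9, Prom1 and Cd44 lie higher in COL, and the circle of SI1 is the lowest SI value for each gene.

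Olfm4 encodes a secreted glycoprotein of the olfactomedin family and is widely used to label stem cells at the SI crypt base. It had 9.74, 161.0, 254.4 and 180.3 CPM in SI1 to SI4, and 0, 0.062, 0.16 and 3.50 CPM in COL1 to COL4. The groups did not overlap, and even the lowest SI library exceeded the highest COL library. These values came from 215 to 5019 counts per SI library and from 0, 1, 6 and 167 counts in COL1 to COL4. The 0 counts in COL1 allow a level of up to 0.088 CPM, which is what 3 counts would give and covers counting error only. SI exceeded COL by a log2 fold change of 7.24 ± 1.48 (SE, edgeR adjusted p = 0.00354), with higher expression in SI in 4 of 4 mice. Most of the COL signal lay in COL4, and without that library the log2 fold change was 10.83 (edgeR adjusted p = 0.00026). COL4 also had the highest COL values of some SI genes. Apoa1, an apolipoprotein of enterocytes, had 63.6 CPM there against 1.31 to 32.0 CPM in COL1 to COL3. Lyz1, the lysozyme of Paneth cells, had 3.08 CPM against 0.53 to 1.18 CPM. Other SI genes were highest in another COL library. The Paneth cell genes Defa24 and Defa30 had 7.21 and 2.55 CPM in COL2 against 5.44 and 0.54 CPM in COL4. Sis, an enterocyte gene, had 14.5 CPM in COL3 against 8.02 CPM in COL4. The part of such genes in the Olfm4 value of COL4 was not tested. Olfm4 lies on chromosome 14 from 79984081 to 80023139 (mm10, plus strand). A noncoding gene on the same strand, Gm6999, shares 5.17% of its exon bases and had at most 6 counts in any library. How reads in the shared bases were assigned is not known.

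Sox9 encodes an HMG-box transcription factor that acts downstream of Wnt in the crypt base and is also needed for Paneth cells. It had 3.03, 9.97, 10.04 and 7.10 CPM in SI1 to SI4, and 85.8, 51.1, 43.7 and 57.0 CPM in COL1 to COL4. Every COL library was thus more than 4 times as high as the highest SI library. On the log2 scale SI minus COL was -2.98 ± 0.40 (SE, edgeR adjusted p = 0.000241), or 7.89 times higher expression in COL, and COL was higher in 4 of 4 mice. Sox9 lies on chromosome 11 from 112782224 to 112787760 (plus strand), and no other gene overlaps its exons.

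Cd44 encodes the hyaluronan receptor, a membrane glycoprotein and Wnt target that is also carried by many lymphocytes. It had 2.17, 13.7, 18.1 and 9.98 CPM in SI1 to SI4, and 98.95, 45.6, 57.7 and 74.8 CPM in COL1 to COL4. The groups did not overlap, and COL was higher in 4 of 4 mice. In the fit, SI minus COL was a log2 fold change of -2.66 ± 0.53 (SE, edgeR adjusted p = 0.00317), which is 6.31 times higher expression in COL. The summed level of 10 immune cell markers went the other way, at 45.9 to 117.4 CPM in SI and 15.8 to 48.0 CPM in COL. Of these markers 8 were tested, and Cd3e and Cd8a, which mark T cells, passed and were higher in SI. With the mouse as a block 5 of the 8 passed, with Ptprc, Cd3d and Cd3g added, and DESeq2 and limma-voom each called 6, while without SI1 Cd3e no longer passed (edgeR adjusted p = 0.106). Their part in the Cd44 levels was not tested. Cd44 lies on chromosome 2 from 102811141 to 102901665 on the minus strand.

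Prom1 encodes prominin-1 (CD133), a membrane protein of cell protrusions. It had 15.4, 61.2, 70.6 and 41.9 CPM in SI1 to SI4, and 166.5, 147.9, 311.5 and 214.4 CPM in COL1 to COL4. The groups did not overlap, and the COL level was 4.44 times the SI level by the fit. As a log2 fold change, SI minus COL was -2.15 ± 0.46 (SE, edgeR adjusted p = 0.0046), with COL higher in 4 of 4 mice. Prom1 lies on chromosome 5 from 43993620 to 44102032. The antisense gene Gm16401 covers 5.91% of its exon bases and had 0 to 55 counts per library. How reads in the shared bases were assigned is not known, as the strand setting of the counting is not given.

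**Figure D2:**
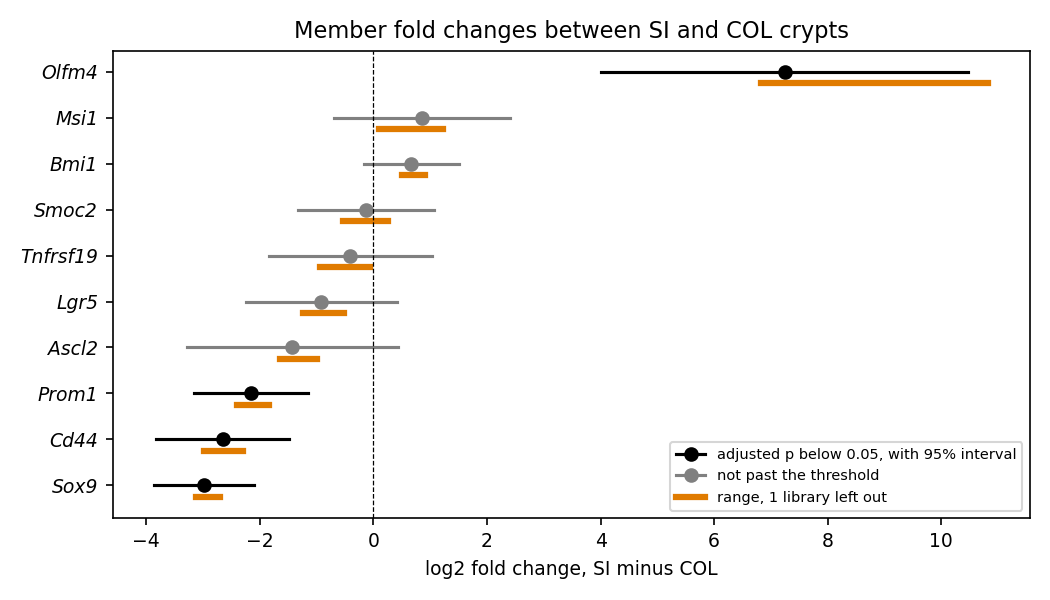
Log2 fold changes (SI minus COL) of the 10 genes with their 95% intervals from edgeR, in black where the adjusted p was below 0.05, and below each the range over 8 fits that each left out 1 library (orange). The intervals of Olfm4, Prom1, Cd44 and Sox9 exclude 0 and those of the other 6 genes include it.

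Lgr5, the receptor for R-spondins that defines the crypt base columnar cell, did not pass the test. It had 0.63, 9.91, 11.2 and 5.81 CPM in SI1 to SI4 and 11.53, 16.1, 12.7 and 11.54 CPM in COL1 to COL4. All COL libraries were above all SI libraries, but SI3 and COL1 lay close together. The fitted log2 fold change was -0.92 with a 95% interval from -2.25 to 0.42 (edgeR adjusted p = 0.293). Without SI1, which had 14 counts of Lgr5, it was -0.51, and without any one library it stayed between -1.23 and -0.51. The interval leaves room for no difference and for a level more than 4 times higher in COL. Lgr5 lies on chromosome 10 from 115450311 to 115587780, where no exon of another gene overlaps it.

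Ascl2 encodes a basic helix-loop-helix factor that controls the fate of Lgr5-expressing cells. It had 0, 1.33, 1.57 and 1.37 CPM in SI1 to SI4, and 2.70, 3.85, 2.46 and 2.51 CPM in COL1 to COL4. Again COL was higher in 4 of 4 mice without overlap, on low counts of 0 to 31 in SI and 62 to 120 in COL. The 0 counts in SI1 allow up to 0.136 CPM. The estimate of SI minus COL was a log2 fold change of -1.43 with a 95% interval from -3.29 to 0.43 (edgeR adjusted p = 0.238), and -0.99 without SI1. In SI2 to SI4 the coefficient of variation of Ascl2 was 9.05%, on 22 to 31 counts, and counting error was not separated from it. Ascl2 lies on chromosome 7 from 142966829 to 142969264.

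Smoc2, which encodes a secreted calcium-binding matrix protein, had 1.90, 15.7, 23.0 and 11.4 CPM in SI1 to SI4 and 18.4, 14.5, 11.7 and 12.5 CPM in COL1 to COL4. The ranges overlapped, and SI was higher in 2 of 4 mice. Its log2 fold change of -0.13 had a 95% interval from -1.33 to 1.06 (edgeR adjusted p = 0.88), and the sign turned to 0.25 without SI1. Smoc2 is on chromosome 17 from 14279506 to 14404790. Fibroblasts and other stromal cells can also express Smoc2. The summed level of 11 stromal, muscle and endothelial markers was 1.28 to 12.2 CPM in SI and 3.40 to 15.5 CPM in COL, and their part in Smoc2 was not tested.

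Tnfrsf19 (Troy), a receptor of the TNF family and Wnt target, had 0.50, 4.23, 2.33 and 1.60 CPM in SI1 to SI4 and 3.93, 1.31, 1.77 and 4.38 CPM in COL1 to COL4. The libraries of the 2 tissues were interleaved. For Tnfrsf19 the log2 fold change was -0.41 with a 95% interval from -1.84 to 1.03 (edgeR adjusted p = 0.688). It rested on 11 to 70 counts in SI and 21 to 209 in COL. Tnfrsf19 lies on chromosome 14 from 60963875 to 61046490.

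Bmi1 encodes a subunit of Polycomb repressive complex 1 and had the most even levels of the 10 genes in SI. It had 4.30, 4.47, 4.87 and 4.53 CPM in SI1 to SI4, and 4.14, 1.80, 2.65 and 2.79 CPM in COL1 to COL4. All SI libraries were just above all COL libraries, and the coefficient of variation was 5.20% in SI against 33.96% in COL. These values rest on 74 to 99 counts in SI and 29 to 141 in COL, and counting error was not separated from the spread. Its log2 fold change was 0.67 with a 95% interval from -0.17 to 1.51 (edgeR adjusted p = 0.22). Its sign depended on the scaling, as it was -0.12 with library size alone, a scaling that moved the median gene from -0.09 to -0.82. Bmi1 lies on chromosome 2 from 18677018 to 18686629. Of the 50-base stretches of its longest transcript, 18.5% also occur in the transcripts of other genes, among them Gm5946, which had at most 2 counts in any library.

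Msi1, an RNA-binding protein of stem and progenitor cells, had 0.45, 5.20, 1.83 and 1.79 CPM in SI1 to SI4 and 1.47, 2.05, 0.75 and 0.88 CPM in COL1 to COL4. The ranges overlapped, and SI was higher in 3 of 4 mice. SI minus COL gave a log2 fold change of 0.85 with a 95% interval from -0.70 to 2.40 (edgeR adjusted p = 0.402) and rested on 10 to 86 counts in SI and 28 to 50 in COL. Msi1 lies on chromosome 5 from 115429599 to 115455698. For 7 of the 10 genes, all but Smoc2, Tnfrsf19 and Msi1, the 4 mice agreed in direction, as did 49.4% of all genes. SI and COL values did not overlap for the same 7 genes, against 33.5% of all genes tested.

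Per kilobase of exon, Olfm4 was the most abundant of the 10 transcripts in SI, at 51.1 ± 34.7 CPM per kb (SD, n = 4), and next to last in COL, at 0.31 ± 0.58 CPM per kb. Prom1 had the second highest level in SI, at 6.59 ± 3.40 CPM per kb, and the highest level in COL, at 29.3 ± 10.2 CPM per kb. In COL it was followed by Sox9, at 14.4 ± 4.46 CPM per kb, and Cd44, at 10.2 ± 3.42 CPM per kb. The lowest Cd44 level in any COL library was above the highest level of Smoc2, the next gene in that order, and the lowest Lgr5 level in COL was above the highest of Bmi1. All other neighbours in the 2 orders overlapped in their ranges over the 4 libraries. Neighbours were not compared library by library, and in SI the low SI1 sets the lower end of most ranges. In SI the levels of Smoc2, Sox9, Cd44, Bmi1, Lgr5, Ascl2, Tnfrsf19 and Msi1 fell in that order from 1.87 to 0.40 CPM per kb, and no neighbours were apart. With the length of the longest transcript in place of all exons, 3 of the 10 genes kept their rank in SI and 6 in COL. Lgr5, whose length falls from 10264 to 4793 bases by this choice, then moved from rank 7 to rank 6 in SI and from rank 6 to rank 5 in COL.

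SI1 held the lowest SI level for 10 of the 10 genes, where it was the lowest SI library for 32.6% of all genes tested. The median of the 10 genes in SI1 was 15.5% of the mean of SI2 to SI4, against 92.4% over all genes tested. Lgr5 in SI1 was at 7.08% of that mean, Olfm4 at 4.90%, Sox9 at 33.6% and Bmi1 at 93.1%. Below 34% of that mean lay 9 of the 10 genes and 18% of all genes tested. The sum of the 10 genes was 38.1 CPM in SI1 and 265.9 to 398.0 CPM in SI2 to SI4, against 284.3 to 445.1 CPM in COL. Without SI1 the log2 fold changes were 7.64 for Olfm4, -2.70 for Sox9, -2.30 for Cd44 and -1.84 for Prom1, and for these 4 genes the edgeR calls were kept. The others were at -0.06 for Tnfrsf19, 0.71 for Bmi1 and 1.22 for Msi1, besides the values given above for Lgr5, Ascl2 and Smoc2, and none passed.

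The marker lists moved with this in SI1. The summed level of 10 proliferation markers was 119.8 CPM in SI1 and 320.8 to 523.9 CPM in SI2 to SI4, with 14.0 CPM of Mki67 in SI1 against 68.5 to 178.1 CPM. The sum of 6 Paneth cell markers was 596.1 CPM in SI1 and 1847 to 4526 CPM in the others. The sum of 13 enterocyte and colonocyte markers, led by Apoa1, was in turn highest in SI1, at 140399 CPM against 61892 to 101963 CPM. That of the immune cell markers was also highest in SI1, at 117.4 CPM against 45.9 to 88.5 CPM. The part of these shifts in the low values of SI1 was not tested.

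**Figure D3:**
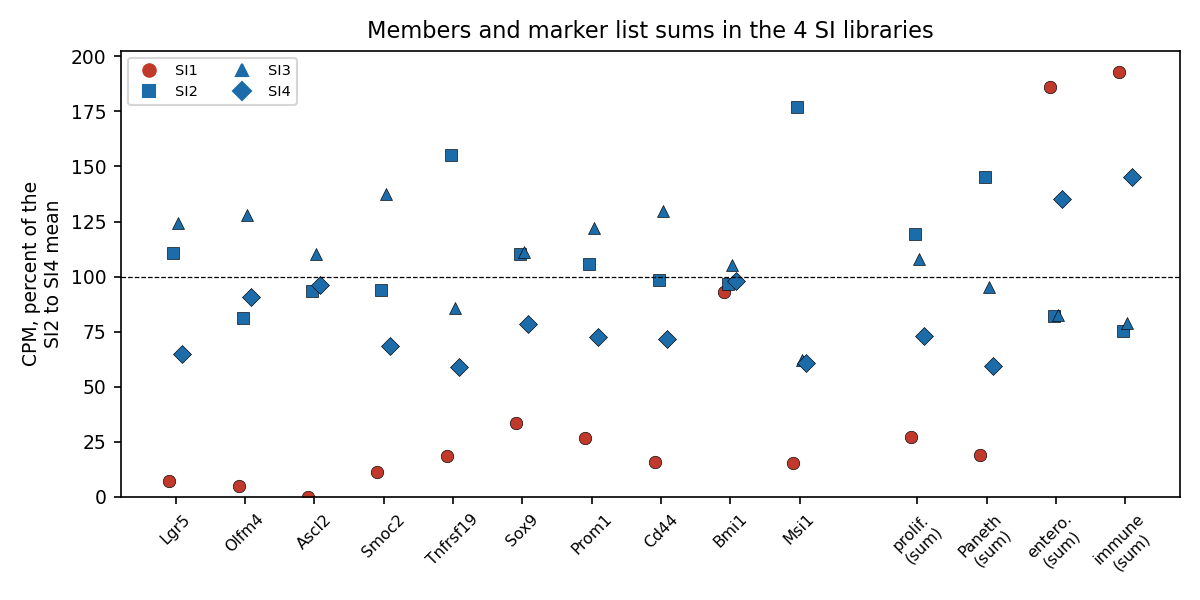
Level of each of the 10 genes, and summed level of 4 marker lists, in SI1 (red circles) and SI2 to SI4 (blue), as a percentage of the mean of SI2 to SI4. SI1 lies at 33.6% or less for every crypt base gene except Bmi1, also low for the proliferation and Paneth sums, and above the others for the enterocyte and immune sums. Of all genes tested, 18% lay below 34% in SI1.

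The ratio of each gene to Lgr5 within a library does not depend on the scaling between libraries. Olfm4 reached 15.4 to 31.0 times the Lgr5 CPM in the SI libraries, SI1 included, and 0 to 0.30 times in COL. The ratios of Bmi1 and Msi1 were also higher in every SI library than in every COL library. Lgr5 itself was lower in every SI library than in every COL library, so a gene of even level has higher ratios in SI. The CPM of Msi1 overlapped between the tissues. How many of all genes have ratios to Lgr5 without overlap was not computed. The ratio of Msi1 was 0.16 to 0.71 in SI and 0.059 to 0.13 in COL, and that of Bmi1 was 0.44 to 6.79 in SI and 0.11 to 0.36 in COL. Sox9 had a median ratio of 1.11 in SI and 4.19 in COL, but SI1, with 4.79, lay within the COL range. Cd44 showed the same order, with medians of 1.67 and 5.51 and 3.43 in SI1. Smoc2 had medians of 2.02 in SI and 1.00 in COL, and its ranges overlapped at 1.59. The ratio of Ascl2 was 0.13 to 0.24 in SI2 to SI4 and 0.19 to 0.24 in COL. These ratios were not tested, and those of SI1 rest on its 14 Lgr5 counts.

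**Figure D4:**
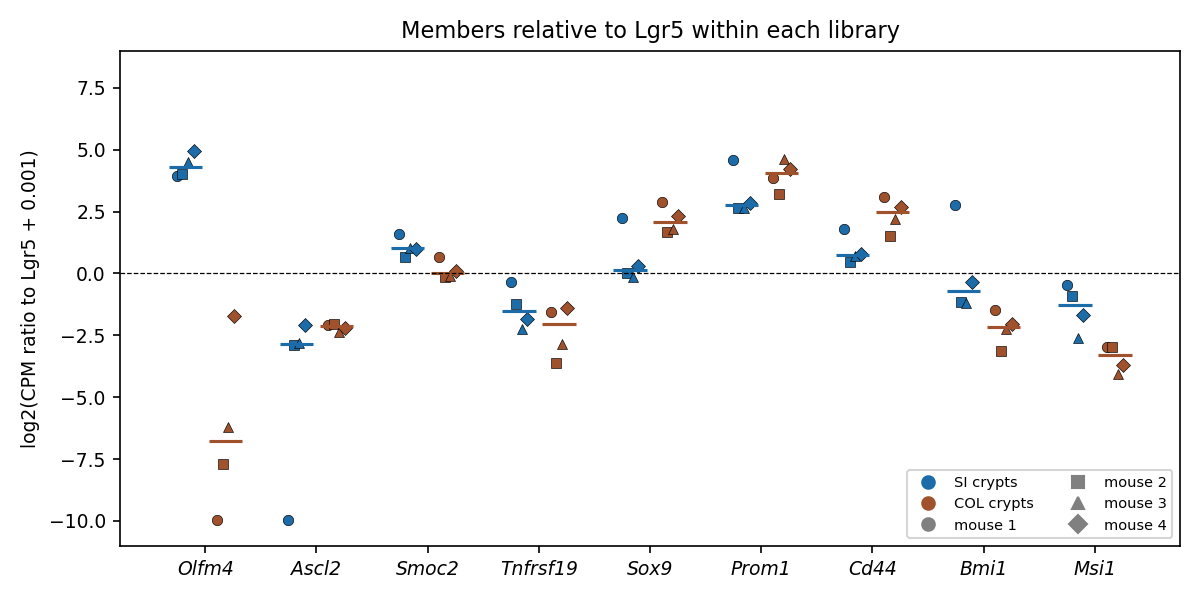
CPM of the other 9 genes divided by the CPM of Lgr5 in the same library, as log2(ratio + 0.001), with 1 symbol per mouse and lines at the log2 of the tissue median. Olfm4, Bmi1 and Msi1 have higher ratios in all SI libraries (blue) than in any COL library (brown), and the Sox9, Prom1 and Cd44 ratios of SI1 lie among those of COL. Lgr5, the divisor, is itself lower in every SI library than in every COL library.

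Further genes of the crypt base were read from a list of 18 that holds Wnt feedback genes, Eph receptors and genes enriched in Lgr5-expressing cells. All 18 were tested, and 9 passed the threshold, 8 of them higher in COL and 1 higher in SI, beside the background of 28.4%. The median log2 fold change of the 18 was -0.83, against -0.09 over all genes. Aqp4, a water channel, had a log2 fold change of -4.49 ± 0.68 (SE, edgeR adjusted p = 0.000574), with 0.95 to 11.1 CPM in SI and 89.5 to 297.8 CPM in COL. Ephb3, a receptor that positions cells along the crypt, had one of -3.64 ± 0.45 (SE, edgeR adjusted p = 0.000144), with 0.82 to 3.90 CPM in SI and 23.3 to 43.0 CPM in COL. Slc12a2, Phgdh, Cdk6, Soat1, Ephb2 and Znrf3 were also higher in COL, with log2 fold changes from -2.34 to -1.19. Without SI1 the log2 fold changes were -4.10 for Aqp4, -3.33 for Ephb3, -1.95 for Slc12a2, -1.76 for Phgdh, -1.65 for Cdk6, -1.44 for Soat1, -1.29 for Ephb2 and 5.09 for Sp5, all still past the threshold in edgeR, and -0.89 for Znrf3 (edgeR adjusted p = 0.056). In 7 of the 8 fits without 1 library Znrf3 lost its call, and Ephb2 lost it in 4 of the 8 and when the mouse was fitted as a block (edgeR adjusted p = 0.0613). Sp5, a Wnt-induced transcription factor, was the only one of the 18 higher in SI, with 1.93 to 4.31 CPM in SI against 0 to 0.23 CPM in COL (log2 fold change 5.12 ± 1.00, SE, edgeR adjusted p = 0.00251).

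The remaining 9 genes of that list did not pass in edgeR. Among them Axin2, Rnf43 and Lgr4 had log2 fold changes near 0. Axin2, a scaffold of the beta-catenin destruction complex that Wnt induces, had 18.4 to 29.1 CPM in SI and 12.0 to 20.6 CPM in COL. Its log2 fold change was 0.39 ± 0.28 (SE, edgeR adjusted p = 0.326). Rnf43, which removes Wnt receptors from the surface, was at 0.29 ± 0.24 (SE), and Lgr4, a relative of Lgr5, was at -0.13 ± 0.32 (SE). Pdgfa was at -0.11, Cdca7 at -0.27, Nkd1, an inhibitor of Wnt signalling, at -0.65 and Dach1 at 0.97. Rgmb, at -1.01, and Nrn1, at 1.64, lay farthest from 0. DESeq2 called both, Rgmb as higher in COL (adjusted p = 0.0221) and Nrn1 as higher in SI (adjusted p = 0.0184). SI1 was the lowest SI library for 15 of the 18 genes, all but Lgr4, Sp5 and Pdgfa, and the sum of the 18 was 184.9 CPM in SI1 against 331.8 to 445.1 CPM in SI2 to SI4. It was far below the others for Slc12a2, at 4.94 CPM against 41.9 to 69.1 CPM, and close to them for Axin2, at 18.4 CPM against 19.5 to 29.1 CPM.

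**Figure D5:**
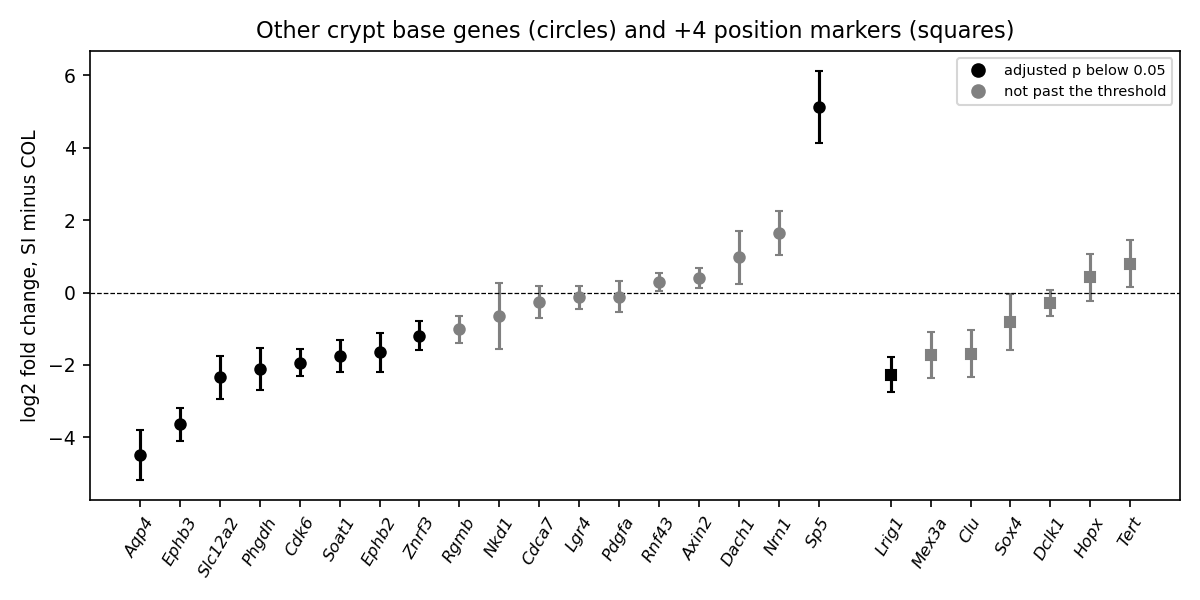
Log2 fold changes (SI minus COL) with standard errors of the 18 other crypt base genes (circles) and 7 markers of the +4 position and of reserve or tuft cells (squares), in black where the adjusted p from edgeR was below 0.05. Among the circles 8 lie below 0 in black and only Sp5 lies above 0 in black, and Lrig1 is the single black square.

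Of 7 genes proposed as markers of the +4 position, reserve, early progenitor or tuft cells, 1 passed the test. Lrig1, an inhibitor of ErbB receptors, had 1.81, 10.5, 13.8 and 6.59 CPM in SI1 to SI4 and 36.5 to 41.7 CPM in COL. Its log2 fold change was -2.27 ± 0.48 (SE, edgeR adjusted p = 0.00459), and without SI1 it was -1.92 (edgeR adjusted p = 0.00134). Hopx, Tert, Mex3a, Clu, Sox4 and Dclk1 did not pass, with log2 fold changes from -1.73 to 0.80. DESeq2 called 3 of the 7, adding Mex3a (adjusted p = 0.00922) and Clu (adjusted p = 0.0322), both with negative log2 fold changes. Of 11 paralogs of the 10 genes, 3 passed the filter on low counts. Msi2 was higher in COL (log2 fold change -1.24 ± 0.42, SE, edgeR adjusted p = 0.0464), at 4.03 to 16.3 CPM in SI and 17.7 to 34.6 CPM in COL, and without SI1 it no longer passed (log2 fold change -0.95, edgeR adjusted p = 0.0813). Msi1 had a positive log2 fold change that was not past the threshold. Pcgf2, a Polycomb paralog of Bmi1, had a log2 fold change of -1.24 and Smoc1 one of -0.39, neither past the threshold, but with the mouse as a block Pcgf2 passed (edgeR adjusted p = 0.0355). Lgr6 had at most 3 counts in any library.

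Among the cell types that share the crypt base, 5 of 6 Paneth cell markers were higher in SI. Ang4 did not pass (log2 fold change -0.22, edgeR adjusted p = 0.836). The sum of all 6 was 18.1 to 83.1 CPM in COL, where Ang4 alone had 10.6 to 68.9 CPM. Of 7 goblet and colonic crypt base secretory markers, Reg4, Agr2, Spink4 and Muc2 were higher in COL, of which Reg4 did not pass with the mouse as a block (edgeR adjusted p = 0.0508). Fcgbp, Tff3 and Clca1 did not pass, with log2 fold changes of 0.66, 0.86 and -0.79. None of the 10 proliferation markers passed the test in edgeR, with a median log2 fold change of -0.62 and 2 of them at an unadjusted p below 0.05, while DESeq2 called 2 and limma-voom 1. Of 6 epithelial markers, Vil1 was higher in SI, Krt18 was higher in COL, and Epcam, Cdh1, Krt8 and Krt19 did not pass. Of 13 enterocyte and colonocyte markers, 9 were higher in SI and Car1, Car4 and Aqp8 were higher in COL. Of 7 stromal, muscle and endothelial markers tested, the endothelial Pecam1 was higher in COL, and the 5 neural and glial markers were too low to be tested, with sums of 0.27 to 2.42 CPM in SI and 0.88 to 5.03 CPM in COL.

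For each of the 10 genes, the genes with the most similar profile over the 8 libraries were sought by the root mean square difference between centred log2 CPM values, among 9365 genes with a mean log2 CPM of at least 2. For Lgr5 these were Top1mt, Trub1 and Myb, with differences of 0.21 to 0.28 log2 units. Olfm4 was nearest to Lyz1 and 2 defensin-related genes, AY761184 and Gm14851, at larger differences of 1.11 to 1.41. The nearest to Ascl2 were Steap2, Pkp1 and Myb, to Smoc2 were Dtl, Cntrob and Noc3l, and to Tnfrsf19 were Rad54l, Ccnf and Fignl1. The nearest to Sox9 were Fasn, Cln6 and Ehf, to Prom1 were Prelid2, L1cam and Cipc, and to Cd44 were Fam57a, Slc39a8 and Abcc1. For Bmi1 they were Smap2, Prkar2a and Spast, and for Msi1 Slc25a28, Cep250 and Baz1b. Among the 10 genes themselves, Lgr5 and Ascl2 were each other's nearest, at 0.43, as were Sox9 and Cd44, at 0.38. In the whole pool, 17 genes were nearer to Lgr5 than Ascl2 was, and 3 were nearer to Ascl2 than Lgr5 was. Likewise 11 were nearer to Sox9 than Cd44 was, and 10 were nearer to Cd44 than Sox9 was. SI1, low for all of the 10 genes but Bmi1, enters each of these differences, and the likeness without SI1 was not computed. Olfm4 had no near neighbour among the 10, the closest being Bmi1 at 4.28.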

How the data were processed

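Crypts of the small intestine and colon of 4 mice were profiled by RNA-Seq of total RNA. The authors trimmed the reads with Trimmomatic 0.36, aligned them with STAR 2.5.2b to mm10 (the submitters' processing notes list mm9 as well) and deposited raw counts per Ensembl gene. The annotation release and strand setting are not given in the sources used here.

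Counts were tested with edgeR 4.0.16 (R 4.3.3) by a quasi-likelihood fit of SI against COL with TMM scaling and filterByExpr, which left 14491 of 45706 genes. P-values were adjusted by Benjamini-Hochberg over these genes. Total counts of 15969428 to 32908060 set the counting error. Levels per length used the union of exons of a GRCm38 annotation. Alternatives used DESeq2 1.42.0, limma 3.58.1, other scalings and filters, the mitochondrial share, a block for the mouse and leaving out each library. The scripts were tested on simulated data. Libraries with the same number came from the same mouse. Their deviations from the tissue means correlated at -0.24, 0.39, -0.08 and 0.33 for mice 1 to 4.

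The 10 genes and all gene lists were chosen with earlier results of these data known. The text names all 10 genes, the genes of the lists by count and the called ones with values, and the 3 nearest genes of each member. Other genes were named after their values were seen.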

Additional observations from a re-analysis of the deposited data

Results flagged for a closer look

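Among 28 genes (the 10 crypt base markers and the 18 further crypt base genes), 56 groups of 4 libraries were searched for a library far from the other 3 by Dixon's criterion. Chance flags about 1 in 20 such groups. It marked 8 values. Olfm4 had 3.50 CPM in COL4, far above the other COL libraries, and Ascl2 had 0 CPM in SI1, far below the other SI libraries. Znrf3, a Wnt receptor ligase, had 2.40 CPM in SI1, below the other SI libraries. Axin2 had 29.1 CPM and Nkd1, an inhibitor of Wnt signalling, 1.39 CPM in SI2, each above the other SI libraries. Cdk6, a cell cycle kinase, had 88.2 CPM in COL1, above the other COL libraries. Pdgfa, a growth factor, had 94.5 CPM and Dach1, a transcription factor, 5.41 CPM in COL2, each above the other COL libraries.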

How the results depend on the processing

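Of 188 fitted values of the 10 log2 fold changes under alternative settings, 183 kept their sign and 5 changed it, and no call changed. Of 20 untested values within libraries of low or high mitochondrial share, 2 changed sign, with 0.22 for Smoc2 and 0.45 for Tnfrsf19 at high share. The log2 fold change of Smoc2 ranged from -0.54 to 0.25 over the fits that left out 1 library (0.25 without SI1, 0.02 without COL1), and that of Tnfrsf19 from -0.94 to -0.06. Without SI1 and COL4 together, a setting chosen after seeing the data, it was 0.18 for Smoc2 and 0.22 for Tnfrsf19, and 4 of the 10 genes passed. That of Bmi1 was -0.12 with library size alone. With at least 10 counts in every library, Olfm4, Ascl2 and Sp5 were not tested, and 0 of the 10 genes and 0 of the 18 companion genes passed as higher in SI. The companion genes higher in SI were 2 with DESeq2 and 2 with the mitochondrial share as covariate. Over all genes, 2605 passed with scaling to 6 epithelial markers, 1189 of them higher in SI, and library size alone gave 1115 higher in SI and 4783 higher in COL. The cause was not tested.

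Leaving out 1 library gave 4 of the 10 genes in each fit (1 higher in SI, 3 higher in COL), 7 to 9 companion genes (1 higher in SI, 6 to 8 higher in COL) and 3167 to 4480 genes in all (1707 to 2393 higher in SI, 1442 to 2187 higher in COL). With the mouse as a replicate block, 4 of the 10 genes, 8 companion genes and 4072 genes in all passed, and no call among the 10 changed. With the longest transcript as length, 3 genes kept their rank in SI and 6 in COL, and with profiles scaled to unit SD 5 of the 10 kept their nearest gene. Ascl2, Msi1 and Tnfrsf19, with the fewest counts, had wide intervals. The widest was that of Olfm4, from 4.00 to 10.48, and Bmi1, also with low counts, had a narrower one from -0.17 to 1.51. The reason for these widths was not tested.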
